A study of Mus musculus with 30 samples.

Results

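Trained mice that had received a CREST plasmid were compared with trained mice that had received vehicle. The comparison takes 24 of the 30 libraries of the series, chosen by condition label alone: 12 plasmid libraries and 12 vehicle libraries, 1 library per mouse and 6 mice per condition. The plasmid effect was measured within each length of training, averaged for the effect common to both plasmids, and subtracted for the difference between them.

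All mice were adult C57BL/6J males. VEH-T10 and VEH-T3 mice received in vivo-jetPEI, a polymer that carries DNA into cells, without DNA. Y397F-T10 and Y397D-T3 mice received the same polymer with a plasmid that expresses HA-tagged mouse CREST from a short CaMK2 promoter, which favors excitatory neurons. Y397F replaces tyrosine 397 of CREST with phenylalanine, which lacks the hydroxyl group that a kinase could modify, and Y397D replaces it with aspartate, whose negative charge is often used in place of a phosphate. Whether this residue is phosphorylated is not established, so both are treated here as point mutants. The infusion into the dorsal hippocampus came 3 days before object location memory training, which lasted 10 min in VEH-T10 and Y397F-T10 and 3 min in VEH-T3 and Y397D-T3. The dorsal hippocampus was collected 1 h after training. The remaining 6 libraries, VEH-HC, are from vehicle-infused mice kept in the home cage and serve here only to estimate the variance and as a reference level. No group received an empty plasmid or wild-type CREST, so plasmid DNA, added CREST and the mutation cannot be told apart. Each mutant was used at 1 length of training, so the mutation and the length cannot be told apart either.

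CREST, the product of Ss18l1, is a calcium-responsive coactivator and a subunit of the neuronal BAF complex, which moves nucleosomes. It binds CBP, the histone acetyltransferase encoded by Crebbp, and is known for its role in activity-dependent dendrite growth. DNA that enters a cell can also be detected by innate sensors such as cGAS and STING, which induce type I interferon and, through it, interferon-stimulated genes.

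The codon that both plasmids change is the reason for showing the end of the coding sequence of Ss18l1. It lies in GRCm38 at chr2:180067332-180067358 on the plus strand, in exon 11 of 11 of the gene, and the capitals mark the codon of tyrosine 397 in a protein of 402 residues.
Ss18l1 end of coding sequence: ggccagTATggaaattaccagcaataa

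Expression was measured as FPKM, the count of fragments of a gene scaled to the length of its transcript and to the mapped fragments of the library. Of 24883 rows, the 13184 with a mean of at least 1 FPKM over the 30 libraries were tested, as log2(FPKM + 1). Relative depth among the trained libraries ran from 0.811 to 1.24 of the median library, and absolute depth is unknown. CA1 pyramidal markers were all detected, and their summed level ran from 307 to 440 FPKM over the 24 libraries. Choroid plexus markers, which belong to tissue beside the hippocampus, varied widely within each condition: Ttr, the choroid plexus transthyretin, ran from 5.89 to 12450 FPKM and was above 1000 FPKM in 2 VEH-T10 and 4 VEH-T3 mice and in 2 Y397F-T10 and 1 Y397D-T3 mice. In whole tissue, fewer cells of a type and less RNA per cell cannot be told apart.

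Ss18l1 was first compared, since the plasmids carry its coding sequence and reads from plasmid and genome count toward the same gene. VEH-T10 mice ran from 10.4 to 13.3 FPKM around a median of 12.4, and Y397F-T10 mice from 11.4 to 14.1 around 12.5. VEH-T3 mice ran from 11.8 to 14.7 FPKM around a median of 12.9, and Y397D-T3 mice from 12.9 to 14.02 around 13.7. The plasmid mice overlapped their vehicle controls at both lengths of training, and the Y397D-T3 mice lay closest together. Plasmid minus vehicle was 0.07 on the log2(FPKM + 1) scale, with a 2-sided p of 0.124 in an exact permutation test over the 853776 assignments that exchange labels within each length of training. The 95% interval from limma was -0.02 to 0.15. Without VEH-T3 mouse 6, the highest Ss18l1 value, the exact permutation p was 0.0429. Leaving out any other single library gave a p from 0.0651 to 0.241 in the same test. A difference in total Ss18l1 was not detectable at this precision, and the measure does not separate plasmid from endogenous transcript.

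Crebbp gave a different picture at each length. In VEH-T10 it ran from 5.47 to 6.51 FPKM with a median of 6.06, and in Y397F-T10 from 6.53 to 7.55 with a median of 7.15. In VEH-T3 it ran from 6.36 to 8.49 with a median of 7.76, and in Y397D-T3 from 6.48 to 7.72 with a median of 7.43. The Y397F-T10 mice did not overlap VEH-T10, but they lay within the range of VEH-T3, and VEH-T10 was the low group of the 4. Of all rows, 0.174% separated Y397F-T10 entirely above VEH-T10 and 0.0834% entirely below. Crebbp did not pass the test for the common effect, at 0.07 ± 0.05 (SE), nor for the difference, at -0.26 ± 0.11 with an adjusted p of 0.458. Smarca4, the BAF ATPase, was at 0.05 ± 0.03 for the common effect.

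**Figure D1:**
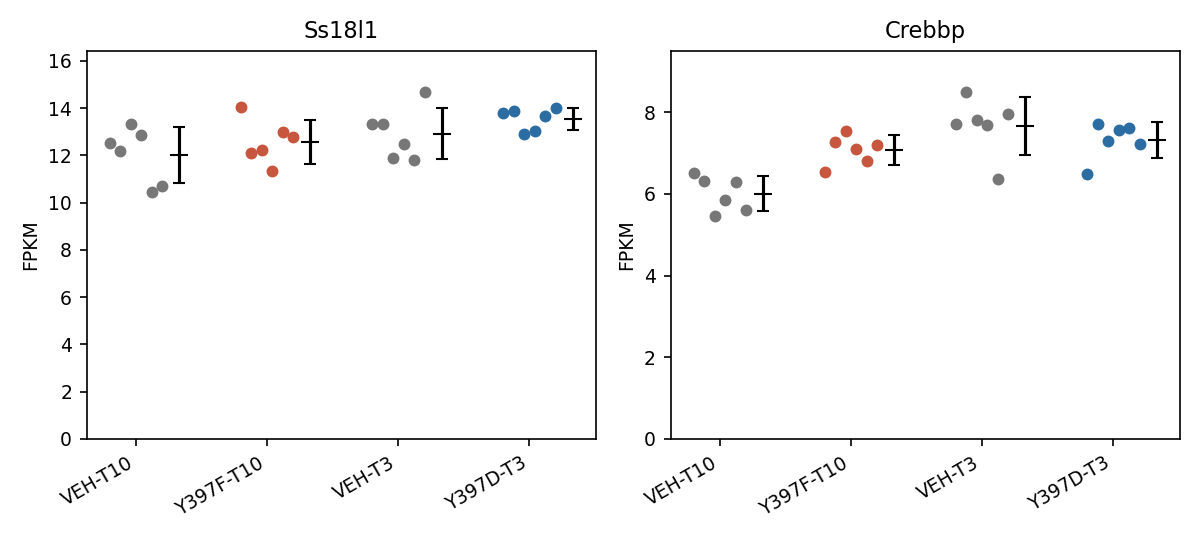
FPKM of Ss18l1 (CREST) and Crebbp (CBP) in each mouse of the 4 trained conditions. Points are mice, bars are the mean ± SD of 6 mice, and the axes start at 0. Ss18l1 overlaps between plasmid and vehicle at both lengths of training, and for Crebbp the VEH-T10 mice, at 5.47 to 6.51 FPKM, are the low group.

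No gene passed the test for the effect common to both plasmids. The share called at an adjusted p under 0.05 was 0.0%, and the smallest adjusted p in limma was 0.996. A Cyber-T-style test, which pools a gene's spread with that of genes at similar level, also called 0 genes at this adjusted threshold. The gene lists of the study rest on a Cyber-T p under 0.05, an unlike threshold, and on other contrasts. At an unadjusted p under 0.05, 173 rows were higher with plasmid, 1.31% of those tested, and 144 were lower, 1.09%. That is 317 rows where 659 would fall under this threshold if no gene differed. The median common effect was -0.0011 on the log2(FPKM + 1) scale, and the median half-width of its 95% interval was 0.114. At the 90th percentile of rows the half-width was 0.267. The rows in which all 6 plasmid mice lay apart from all 6 vehicle mice at both lengths of training were 0.0% of those tested.

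The 8 genes of smallest unadjusted p in each direction are given as descriptions, since none passed. Crh, which encodes corticotropin-releasing hormone of a subset of interneurons, had the smallest. Its median was 1.02 FPKM in VEH-T10, against 1.74 in Y397F-T10. The mean was 1.34 FPKM in VEH-T3, against 1.56 in Y397D-T3. Every Y397F-T10 mouse exceeded the VEH-T10 median, at 1.15 to 2.14 FPKM, while Y397D-T3, at 1.34 to 2.06, overlapped VEH-T3, at 1.08 to 1.497. The common effect on Crh was 0.27 ± 0.07 (SE), with an unadjusted limma p of 0.000356 and an adjusted p of 0.996. Higd1b, a mitochondrial protein of pericytes, had medians of 2.00 and 2.81 FPKM in VEH-T10 and Y397F-T10, and 2.40 and 2.73 in VEH-T3 and Y397D-T3. Its common effect was 0.30 ± 0.08, and 1 VEH-T10 mouse, at 2.51 FPKM, reached into the Y397F-T10 range. The other 6 with higher values were Rfx5, a regulator of MHC genes, Cbx1, which encodes the heterochromatin protein HP1 beta, Slitrk5, a synaptic adhesion protein, Med26, a Mediator subunit, Enox1 and Cacng8, an auxiliary AMPA receptor subunit abundant in hippocampus. Their common effects ran from 0.11 for Enox1 and Slitrk5 to 0.15 for Cbx1. Cacng8 was the most abundant of them, with medians of 137.7 and 147.0 FPKM in the VEH-T10 and VEH-T3 controls and of 146.5 and 165.8 in the Y397F-T10 and Y397D-T3 mice.

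On the lower side Ndufaf4, an assembly factor of respiratory complex I, had the smallest p. Its medians were 7.27 and 6.94 FPKM in the VEH-T10 and VEH-T3 controls and 6.67 and 5.96 in the Y397F-T10 and Y397D-T3 mice, and its common effect was -0.14 ± 0.04. The plasmid and vehicle mice overlapped at both lengths. Cfl2, an actin-severing cofilin, and Eif2s1, the alpha subunit of translation initiation factor eIF2, were at -0.14 ± 0.04 and -0.11 ± 0.03. Eif2s1 ran from 10.4 to 11.99 FPKM in Y397F-T10 and from 10.1 to 11.95 in Y397D-T3, against 11.5 to 12.9 and 11.1 to 12.8 in their vehicle groups. Gins1 of the replicative helicase, Pdlim1, Fhit, Kcnj8, a potassium channel of pericytes, and Tmem204 of endothelium made up the 8, with common effects between -0.19 and -0.37. Gins1, Fhit and Kcnj8 were at low levels, where the added 1 FPKM draws differences toward 0.

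**Figure D2:**
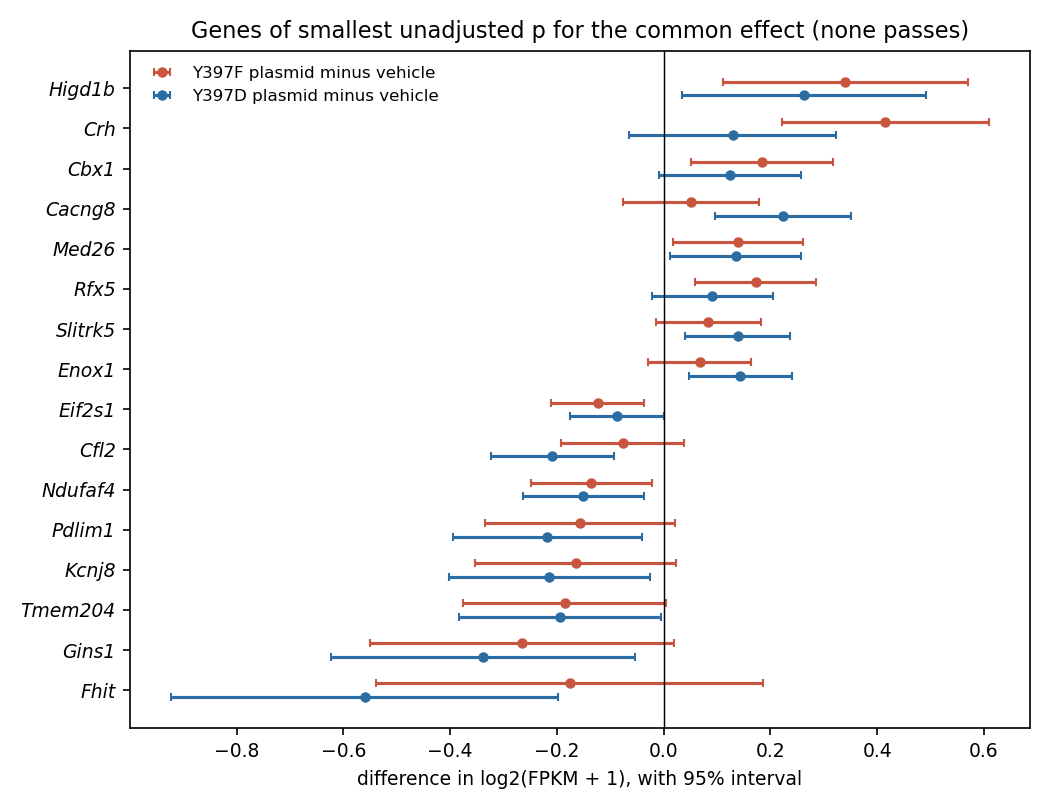
Difference between plasmid and vehicle in log2(FPKM + 1) for the 16 genes of smallest unadjusted p, separately for Y397F at 10 min and Y397D at 3 min. Points are limma estimates and bars are 95% intervals. The genes were chosen for agreeing in sign, none passed the adjusted test, and Fhit has the widest intervals.

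Taken one at a time, the plasmids gave few calls as well. Y397F-T10 against VEH-T10 called 0.0% of rows, with a smallest adjusted p of 0.996; unadjusted, 256 rows were higher (1.94%) and 242 lower (1.84%). Y397D-T3 against VEH-T3 called 1 row, 0.00758%; unadjusted, 679 rows were higher (5.15%) and 358 lower (2.72%). The called gene was Tmem263. Mice of Y397D-T3 and VEH-T3 did not overlap, higher, in 0.137% of rows and, lower, in 0.091%. The effects of both plasmids, which share no library, ran against each other across rows: 58.0% of rows had opposite signs, with a Pearson r of -0.24 and a Spearman rho of -0.19 over 13184 rows. Both effects also had opposite trends on transcript features. Spearman rho with GC content was -0.24 for Y397F and 0.33 for Y397D, and with length 0.36 and -0.13. Genes of a library are not independent, so these are descriptions.

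**Figure D3:**
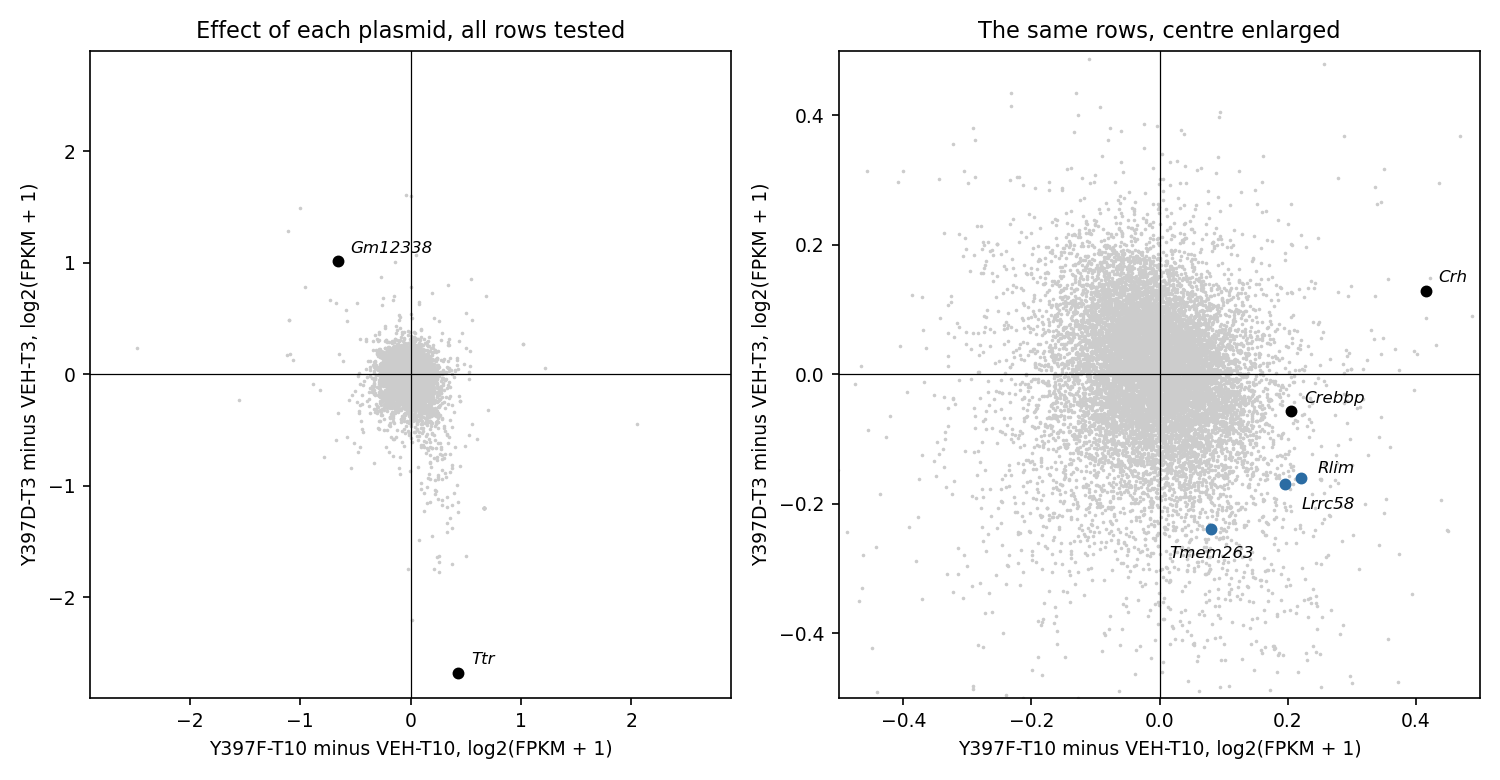
Effect of Y397F at 10 min (horizontal) against that of Y397D at 3 min (vertical) in log2(FPKM + 1), 1 point per row tested, whole at left and within ±0.5 at right, where 207 rows fall outside. Lrrc58, Rlim and Tmem263, called for a difference between plasmids, are blue, in the lower right quadrant, and the choroid plexus gene Ttr is the lowest point at left.

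A total of 4 genes, 0.0303% of the 13184 rows, passed the test of the difference between plasmids, among them Lrrc58, Rlim and Tmem263. In these 3 the effect of Y397D at 3 min was below that of Y397F at 10 min, with an adjusted p of 0.0228 in limma. At an unadjusted p under 0.05 the difference was higher in 745 rows, 5.65%, and lower in 452 rows, 3.43%.

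Rlim encodes a ubiquitin ligase of the X chromosome known for its part in X inactivation, and lies at chrX:103957163-103981284 of GRCm38 on the minus strand. It ran from 5.91 to 7.11 FPKM in VEH-T10 with a median of 6.58, and from 7.58 to 8.10 in Y397F-T10 with a median of 7.79. It ran from 7.23 to 8.91 in VEH-T3 with a median of 8.10, and from 6.600 to 7.60 in Y397D-T3 with a median of 7.04. All Y397F-T10 mice were above all VEH-T10 mice, and Y397D-T3 overlapped VEH-T3. The difference was -0.38 ± 0.07 (SE), from 0.22 with Y397F and -0.16 with Y397D.

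Lrrc58, a leucine-rich repeat protein gene at chr16:37868389-37888858 on the plus strand, ran from 8.75 to 10.99 FPKM in VEH-T10 with a median of 10.2 and from 10.95 to 11.99 in Y397F-T10 with a median of 11.8. It ran from 11.4 to 13.0 in VEH-T3 with a median of 12.4 and from 9.96 to 11.9 in Y397D-T3 with a median of 11.04. The groups overlapped slightly at both lengths. The difference was -0.37 ± 0.07.

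Tmem263, a membrane protein gene at chr10:85102627-85120618 on the plus strand, ran from 6.57 to 8.09 FPKM in VEH-T10 and from 7.70 to 8.62 in VEH-T3, and from 7.55 to 8.50 in Y397F-T10. In Y397D-T3 it ran from 6.45 to 7.13, below every VEH-T3 mouse. It fell with Y397D by 0.24 on the log2(FPKM + 1) scale, with an adjusted p of 0.0383 in limma, and its effect with Y397F was 0.08. The difference was -0.32 ± 0.06.

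The means of the vehicle groups differed in these genes, in the direction opposite to those of the plasmid groups. The genes were chosen for a large difference, which is the plasmid gap minus the vehicle gap. Opposite signs of both gaps follow in part from that choice and are no further evidence. For Rlim and Lrrc58 no VEH-T10 mouse reached the VEH-T3 range, while for Tmem263 the vehicle groups overlapped. The share of all rows in which the vehicle groups lay apart was not computed. VEH-T3 minus VEH-T10 was 0.26 for Rlim, 0.27 for Lrrc58 and 0.09 for Tmem263. Y397D-T3 minus Y397F-T10 was -0.12, -0.09 and -0.23 in the same order. For Rlim and Lrrc58 the larger share of the difference was thus the one between vehicle groups. The home-cage mice had medians of 7.95 FPKM for Rlim, 10.4 for Lrrc58 and 7.96 for Tmem263. Those for Rlim and Tmem263 lay nearer to Y397F-T10 and VEH-T3 than to Y397D-T3, and that for Lrrc58 lay between VEH-T10 and Y397D-T3.

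**Figure D4:**
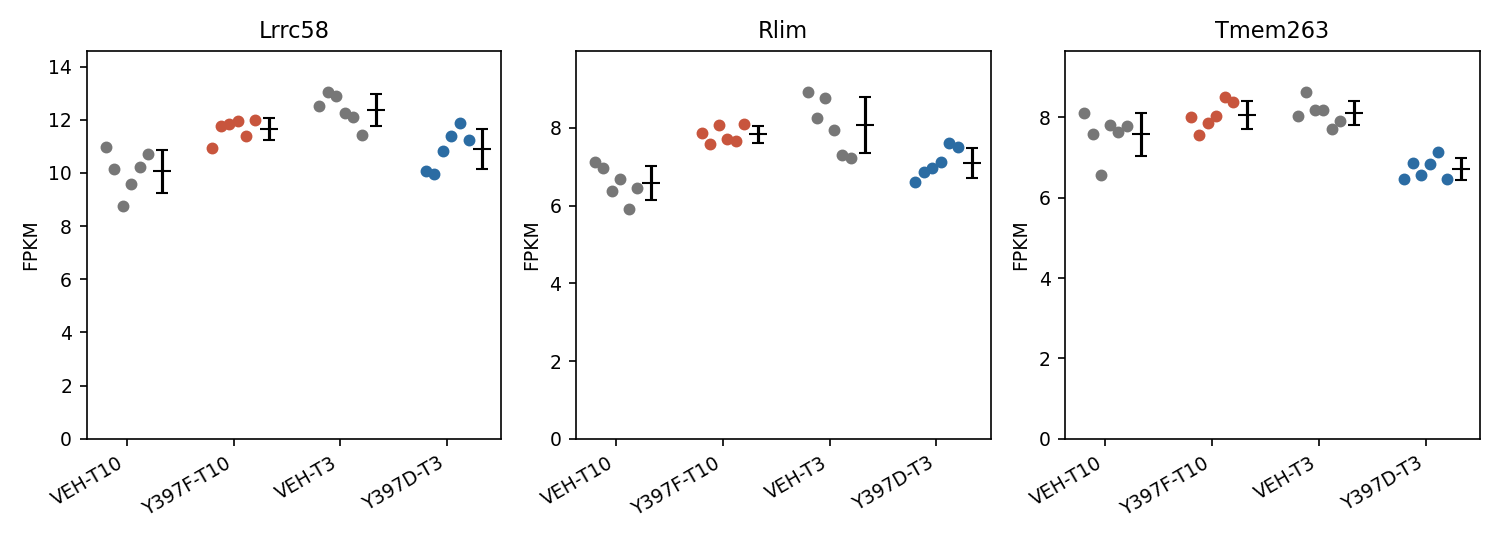
FPKM of Lrrc58, Rlim and Tmem263, called for a difference between plasmids, in each mouse of the trained conditions, with the mean ± SD of 6 mice and axes from 0. Y397F-T10 lies above VEH-T10 on average and Y397D-T3 below VEH-T3, while the vehicle groups differ from each other, as for Rlim at 5.91 to 7.11 against 7.23 to 8.91 FPKM.

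The transcripts of Lrrc58, Rlim and Tmem263, among the 4 called genes, had features in common, which were not compared in the remaining called gene. These features are not independent of the calls, since the difference moved with length and GC content across all genes, as given below. Their GC content was 40.3% to 43.0%, from percentile 5.51 to percentile 13.7 of tested genes, whose median was 50.3%. Lrrc58, at 8604 bases, and Rlim, at 7439 bases, were among the longest transcripts, while Tmem263, at 3616 bases, was nearer to the median of 3211. Their 3′ untranslated regions held 11 copies of ATTTA in Rlim, 14 in Tmem263 and 22 in Lrrc58, against a median of 2. This pentamer is the core of AU-rich elements, by which many short-lived mRNAs are regulated, and 6.0% of tested genes had 11 copies or more. Counted per kilobase, Tmem263 had 4.84 copies, Lrrc58 2.97 and Rlim 2.06, against a median of 1.29. To show what these elements look like in these genes, the 30 bases of each 3′ untranslated region with the most copies are given, from GRCm38 transcripts of GENCODE, with ATTTA in capitals. A match is a description of the letters and not a site of regulation.
Lrrc58, chr16:37886901-37886930, plus strand: acaaatcaagtATTTAgtagtagctATTTA
Rlim, chrX:103961859-103961888, minus strand: agcgaATTTAgagtttaattgagatATTTA
Tmem263, chr10:85116425-85116454, plus strand: aATTTAtaagtgacatatatttggcATTTA

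The difference between plasmids moved with transcript length and GC content across all genes. With the rows in 5 equal bins, the median difference was 0.07 for the shortest transcripts, up to 1803 bases, and -0.06 for the longest, from 5206 bases. It was -0.07 for the lowest GC content, up to 44.4%, and 0.09 for the highest, from 56.1%. Across 12686 rows the Spearman rho of the difference was -0.31 with length and 0.38 with GC content, and that of the common effect was 0.14 and 0.11. The slope of a library on GC content had a median of 0.0018 log2 per SD of GC content in VEH-T10, against -0.016 in Y397F-T10, and of -0.023 in VEH-T3, against 0.017 in Y397D-T3. With each library's trend on length and GC content removed, 0 genes were called, and the differences were -0.26 for Rlim, -0.25 for Lrrc58 and -0.24 for Tmem263. Without the choroid-rich libraries, an alternative chosen after seeing the data that lost 4 of the 6 VEH-T3 mice, 0 genes were called as well. The differences were then -0.42 for Rlim, -0.34 for Lrrc58 and -0.36 for Tmem263. The part of choroid plexus tissue in these calls was not tested. Leaving out 1 library at a time gave from 0 to 5 calls, with 0 in 8 of 24 such fits. For the Y397D call of Tmem263 alone, 16 of 24 such fits gave 0.

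The 5 genes of smallest p in the opposite direction did not pass. Gm12338, a processed pseudogene at chr11:75599763-75599954, came first, with an adjusted p of 0.0884 and a difference of 1.67 ± 0.34. It ran from 6.25 to 9.26 FPKM in VEH-T10 and from 3.75 to 15.9 in VEH-T3, and from 2.64 to 6.95 in Y397F-T10. In Y397D-T3 it ran from 14.9 to 18.8, and among VEH-T3 mice only mouse 6, at 15.9, reached that range, with mouse 4 just below it at 14.7. A processed pseudogene can share reads with its parent gene, so its level is uncertain. Grin2c, an NMDA receptor subunit of astrocytes and cerebellum, had medians of 14.9 and 12.1 FPKM in VEH-T10 and Y397F-T10, and 12.3 and 14.2 in VEH-T3 and Y397D-T3, a difference of 0.44 ± 0.10 with an adjusted p of 0.174. Cox19, an assembly factor of cytochrome c oxidase, Amz2 and Acp6 were at 0.44, 0.27 and 0.39. On the other side Ssr1, a subunit of the endoplasmic reticulum translocon, was at -0.24 with an adjusted p of 0.269.

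Innate immune genes were examined because plasmid DNA was present in 1 arm only. At an unadjusted p under 0.05 for the common effect, 1.31% of all rows were higher and 1.09% lower. Of 29 interferon-stimulated genes tested, 0 were under this threshold, near that share, and their median was 0.08. Their values differed widely between single mice. Isg15, a ubiquitin-like protein induced by interferon, read 2.02, 26.7, 23.7, 15.3, 31.4 and 36.2 FPKM in VEH-T10 mice 1 to 6, and 4.14, 21.9, 13.4, 53.2, 15.8 and 57.1 in Y397F-T10. In VEH-T3 mice 1 to 6 it read 1.78, 35.3, 63.7, 10.1, 57.2 and 5.93 FPKM, and in Y397D-T3 24.2, 9.47, 6.42, 81.6, 41.8 and 86.9. High and low mice were thus found in every group, vehicle included. Its common effect was 0.46 with a 95% interval of -0.66 to 1.58, which includes differences of over 1 upward. Ifit1, an RNA-binding antiviral protein, ran from 0.39 to 8.06 FPKM in VEH-T10 and from 0.777 to 21.8 in VEH-T3, against 1.49 to 21.99 in Y397F-T10 and 1.14 to 18.5 in Y397D-T3. Cxcl10, a chemokine for T cells, and Usp18, which dampens interferon signaling, were at 0.25 ± 0.48 and 0.23 ± 0.44. The sum of all 30 listed genes ran from 121 to 527 FPKM in VEH-T10 and from 74.3 to 842 in VEH-T3, against 115 to 929 in Y397F-T10 and 103 to 688 in Y397D-T3, and from 155 to 649 in the home-cage vehicle mice. The median difference between plasmids was -0.11 over the list. With the choroid-rich libraries left out the median common effect was 0.22 and the median difference 1.46, and VEH-T3 then kept 2 mice.

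The sensors themselves were lowly expressed. Of 14 genes of cytosolic and endosomal DNA sensing tested, 0 had an unadjusted p under 0.05 for the common effect, and their common median was -0.04. That is near the share of all rows, 1.31% higher and 1.09% lower. With Y397F alone 1 was higher under this threshold, where 1.94% of all rows were. Mb21d1, the gene of cGAS, stayed below the filter at 0.399 to 1.06 FPKM over the 24 mice, and Tmem173, the gene of STING, had medians of 2.91 to 3.32 FPKM in the 4 conditions. Tbk1, the kinase downstream, was at 0.05 ± 0.03, Myd88 at -0.17 ± 0.13, Samhd1 at -0.13 ± 0.16 and Tlr9 at -0.12 ± 0.16. Genes of MHC class I presentation gave 0 of 15, with a median of -0.02, where Calr was at -0.06 ± 0.06, Pdia3 at -0.07 ± 0.08, Erap1 at -0.09 ± 0.11 and Psmb10 at -0.04 ± 0.09.

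Glial genes were lower with plasmid in most members but without a call. Microglia markers were lower in 16 of 17, with a median of -0.10 and 0 members under an unadjusted p of 0.05. The median was -0.17 with Y397F, lower in 17 of 17, and -0.02 with Y397D, lower in 10 of 17. With the choroid-rich libraries left out the common median turned to 0.03, with -0.56 for Y397F and 0.59 for Y397D. Tyrobp, a signaling adaptor of microglia, had medians of 95.9 and 65.6 FPKM in the VEH-T10 and VEH-T3 controls and of 70.9 and 50.7 in the Y397F-T10 and Y397D-T3 mice, and its groups overlapped throughout, with a common effect of -0.25 ± 0.24. Cx3cr1 was at -0.08 ± 0.13 and Sall1 at -0.06 ± 0.09. Microglial activation genes and chemokines were lower in 14 of 15, with a median of -0.17 and 0 under the unadjusted threshold, and among them Spp1, or osteopontin, was at -0.63 ± 0.61, Ccl3 at -0.44 ± 0.33, Ccl4 at -0.33 ± 0.32 and Apoe at -0.13 ± 0.09. Without the choroid-rich libraries the common median of that list was -0.05, with -0.75 for Y397F and 0.85 for Y397D. The members of such a list vary together between mice and are not independent, so the count of signs is not a test. The summed microglia markers ran from 422 to 1889 FPKM in VEH-T10 and from 353 to 1501 in VEH-T3, against 433 to 1284 in Y397F-T10 and 567 to 1026 in Y397D-T3.

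Astrocyte markers were at a median of -0.03 in 12 genes, with Aqp4 at -0.16 ± 0.14, Gja1 at -0.08 ± 0.08, Glul at -0.03 ± 0.04 and Sox9 at -0.07 ± 0.09. Reactive astrocyte genes were at -0.09 in 16, among them Nes at -0.19 ± 0.15 and Hspb1 at -0.16 ± 0.14. Without the choroid-rich libraries they were at 0.05, with -0.58 for Y397F and 0.66 for Y397D. Gfap, the astrocyte filament, ran from 141 to 1194 FPKM over the trained mice. Oligodendrocyte markers were lower in 12 of 12, with a median of -0.15, and 0 were under the unadjusted threshold. Without the choroid-rich libraries the median was -0.03, with -0.26 for Y397F and 0.17 for Y397D. Endothelial and mural markers were lower in 12 of 13 with a median of -0.10, and 3 of them, 0 higher and 3 lower, had an unadjusted p under 0.05, where 1.09% of all rows were lower: Kcnj8 at -0.19 ± 0.06, Rgs5 at -0.15 ± 0.06 and Itm2a at -0.17 ± 0.07. Rgs5 had medians of 18.5 and 16.9 FPKM in VEH-T10 and Y397F-T10 and 19.3 and 16.5 in VEH-T3 and Y397D-T3. Without the choroid-rich libraries the median of the endothelial and mural list was -0.12. Higd1b, the pericyte gene named above and not on the list, went the other way at 0.30. Lysosome genes were lower in 16 of 18 with a median of -0.13. Without the choroid-rich libraries it was -0.06, with -0.35 for Y397F and 0.18 for Y397D. Lipa, the acid lipase, at -0.28 ± 0.12, was the 1 member under the unadjusted threshold, where 1.09% of all rows were lower.

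**Figure D5:**
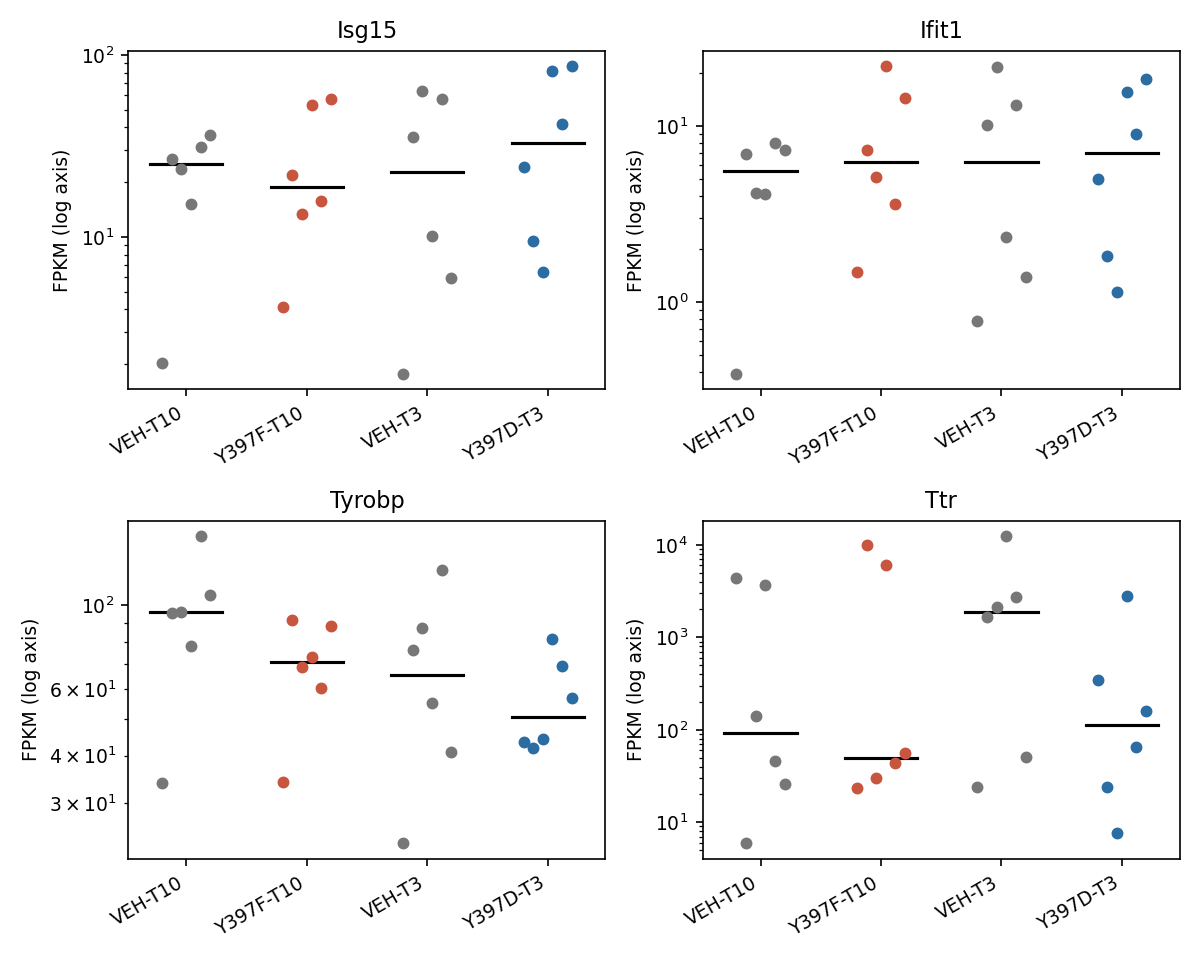
FPKM of the interferon-stimulated genes Isg15 and Ifit1, the microglial gene Tyrobp and the choroid plexus gene Ttr in each trained mouse, on log axes, with the median of 6 mice as a line. Mice of 1 condition differ by over 10-fold in Isg15, 1.78 to 63.7 FPKM in VEH-T3, and the ranges of all conditions overlap.

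Tissue next to the CA1 field was followed in the same way. Choroid plexus markers were at -0.49 in 10 genes, with Ttr at -1.12 ± 1.26, and ependymal, meningeal fibroblast and thalamus markers at -0.10, -0.15 and -0.11, each with 0 members under the unadjusted threshold for the common effect. For the difference between plasmids, choroid plexus markers were at -1.70 and meningeal markers at -0.40. At an unadjusted p under 0.05 in limma, 1 of 9 meningeal markers was lower for the difference, where 3.43% of all rows were, and none passed the adjusted test. Among them Dcn, a proteoglycan of fibroblasts, ran from 11.6 to 20.3 FPKM in VEH-T3 and from 6.78 to 10.9 in Y397D-T3 without overlap. Of all rows, 0.091% separated Y397D-T3 entirely below VEH-T3. With the choroid-rich libraries left out the choroid plexus and meningeal medians for the difference turned, to 0.29 and 0.25. For the common effect the choroid plexus and ependymal medians turned to 0.11 and 0.07 and the cortical and subicular one to -0.07. The ependymal median was then -0.33 with Y397F and 0.50 with Y397D. Cortical and subicular markers were at a common median of 0.04, CA1 markers at 0.05, CA2 and CA3 markers at 0.04, dentate granule cell markers at 0.11 and interneuron markers at 0.05. In these neuronal lists 2 members, both higher, had an unadjusted p under 0.05, where 1.31% of all rows were higher and 1.09% lower. They were Pou3f1 of CA1 pyramidal cells at 0.13 ± 0.06 and Reln of interneurons at 0.13 ± 0.06. Globin and red cell genes were at 0.04 in 6 genes.

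Subunits of the BAF complex, to which CREST belongs, had a median common effect of 0.02 in 29 genes. At an unadjusted p under 0.05, 1 of the 29 was higher, Bcl7a at 0.08 ± 0.03, where 1.31% of all rows were. For the difference, an unadjusted p under 0.05 was reached by 3 subunits upward and 2 downward, where 5.65% and 3.43% of all rows did so. Actl6b, the neuron-specific actin-related subunit, had medians of 51.0 and 49.7 FPKM in VEH-T10 and Y397F-T10, and of 47.9 and 56.8 in VEH-T3 and Y397D-T3, a difference of 0.26 ± 0.11. Smarcd3 and Bcl11a were at 0.29 ± 0.12 and 0.20 ± 0.08, and Pbrm1 and Smarcc1 at -0.23 ± 0.08 and -0.13 ± 0.05. None of the 5 passed the adjusted test, at 0.428 to 0.491, and their naming here followed a look at their values.

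CBP, p300, CREB and their coactivators had a median common effect of 0.01 in 18 genes, with Cited2, which competes for the same CBP domain as hypoxia factors, at 0.11 ± 0.05. For the difference, an unadjusted p under 0.05 was reached by 0 upward and 3 downward, where 3.43% of all rows reached it downward: Crebbp, Creb1 at -0.22 ± 0.08 and Ncoa2 at -0.22 ± 0.08. Ncoa2, a nuclear receptor coactivator, ran from 8.94 to 10.6 FPKM in VEH-T10 and from 10.5 to 10.8 in Y397F-T10, with VEH-T3 at 9.02 to 11.4 and Y397D-T3 at 9.12 to 10.5. The VEH-T10 median of Ncoa2, at 9.24 FPKM, was the lowest of the 4, but its range overlapped that of every other condition.

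Immediate-early genes, which neurons switch on within minutes of activity, had a median common effect of 0.02 in 30 genes and 0 members under the unadjusted threshold. Fos ran from 6.89 to 9.16 FPKM in VEH-T10 and from 5.32 to 7.87 in VEH-T3, against 5.29 to 8.09 in Y397F-T10 and 4.44 to 9.61 in Y397D-T3, with a common effect of -0.09 ± 0.10. Egr2 was at 0.02 ± 0.11, Jund at 0.09 ± 0.05, Nr4a1 at 0.13 ± 0.09, Bdnf at 0.10 ± 0.06 and Egr3 at 0.06 ± 0.05. For the difference the list had a median of 0.13, against 0.01 over all rows, and an unadjusted p under 0.05 was reached by 5 of 30 members upward and 0 downward, where 5.65% of all rows reached it upward. These were Arc, Nr4a1, Junb, Egr4 and Klf10, named after their values had been seen, and none passed the adjusted test. Arc, a regulator of AMPA receptor traffic, had medians of 38.5 and 44.5 FPKM in the VEH-T10 and VEH-T3 controls and of 33.4 and 54.8 in the Y397F-T10 and Y397D-T3 mice, and a difference of 0.59 ± 0.21 with an adjusted p of 0.415. Nr4a1, an orphan nuclear receptor, ran from 23.8 to 25.8 FPKM in VEH-T10 and from 20.6 to 32.1 in VEH-T3, against 20.5 to 26.8 in Y397F-T10 and 21.0 to 42.9 in Y397D-T3. Y397D-T3 spread the widest in both genes and overlapped its control. With the length and GC trend removed the median of the list was 0.10.

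The genes that the study gave as examples overlap that list and were chosen from these libraries, so they are no independent evidence. Its 6 calcium signaling examples were at 0.03 and its 10 immediate-early and histone examples at 0.03 for the common effect, with 0 members under the unadjusted threshold in either. Their medians for the difference were 0.26 and 0.29, with 3 of 6 and 3 of 10 higher at an unadjusted p under 0.05, against 5.65% of all rows. Hpca, the hippocampal calcium sensor hippocalcin, ran from 1288 to 1764 FPKM in VEH-T10 and from 1077 to 1653 in VEH-T3, against 1158 to 1677 in Y397F-T10 and 1276 to 2032 in Y397D-T3, with a common effect of 0.03 ± 0.08. Hist1h4j, a replication-dependent histone H4 gene of low level, ran from 0.762 to 9.86 FPKM in VEH-T10 and from 0.0 to 3.01 in VEH-T3, against 0.0 to 3.73 and 0.0 to 7.20 in the plasmid groups, so no direction could be read. Replication-dependent histone genes had a median common effect of 0.10 in 23 genes tested of 68, and 2, Hist2h2be at 0.14 ± 0.06 and Hist1h1e at 0.33 ± 0.16, were higher at an unadjusted p under 0.05, against 1.31% of all rows. Histone genes are near-identical copies and lack poly(A) tails, so their levels are uncertain.

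Receptor genes for glutamate and GABA, which carry fast synaptic transmission, gave 0 calls for the common effect. In each list 1 member was higher at an unadjusted p under 0.05, where 1.31% of all rows were. Ionotropic glutamate receptor genes had positive values in 14 of 15, with a median of 0.05. Grin2b, the NMDA receptor subunit with a slow decay, ran from 6.26 to 14.6 FPKM in VEH-T10 with a median of 7.79 and from 9.50 to 12.8 in Y397F-T10 with a median of 10.96. It ran from 8.75 to 15.6 in VEH-T3 and from 8.88 to 19.6 in Y397D-T3, and its common effect was 0.31 ± 0.14, with an unadjusted p of 0.0362. VEH-T10 mouse 1, at 14.6 FPKM, lay above all Y397F-T10 mice. Grin2a was at 0.24 ± 0.13, Gria1 at 0.07 ± 0.04 and Gria2 at 0.08 ± 0.05. GABA-A receptor genes had positive values in 11 of 12, and in 7 of 12 with Y397D alone, with a median of 0.05 and Gabrb1 at 0.18 ± 0.06 as the 1 member under the unadjusted threshold.

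Families of short transcripts came last. Cytosolic ribosomal protein genes were lower with plasmid in 76 of 81, with a median of -0.07, and an unadjusted p under 0.05 was reached by 0 upward and 4 downward, where 1.09% of all rows reached it downward. With the length and GC trend removed the median was -0.03. These 4 were Rps19 at -0.19 ± 0.07, Rps24 at -0.17 ± 0.07, Rps27 at -0.48 ± 0.22 and Rps27a at -0.14 ± 0.06. The median of the list was -0.12 with Y397F and -0.02 with Y397D. Nuclear oxidative phosphorylation subunits were lower in 50 of 76, with a median of -0.01, and at 0.08 for the difference, which was 0.03 with the length and GC trend removed. For the common effect splicing factors of the SR and hnRNP families were at -0.00, heat shock proteins at 0.00 and endoplasmic reticulum and integrated stress genes at -0.02. On that measure p53 targets were at -0.06 and cholesterol synthesis genes at -0.03, and each list had 0 members under the unadjusted threshold. For the difference 4 of 31 splicing factors were lower under the threshold and 0 higher, where 3.43% of all rows were lower. The other lists just named had 0 or 1 members in each direction. Circadian clock and output genes were at 0.03 for the common effect in 17 genes, with Cry2 at 0.06 ± 0.04 and Arntl at 0.07 ± 0.05. Glucocorticoid targets were at 0.05 in 10 genes, where Fkbp5, a cochaperone of the glucocorticoid receptor, was at 0.10 ± 0.04 and had medians of 16.7 and 18.2 FPKM in VEH-T10 and Y397F-T10 and of 16.1 and 17.3 in VEH-T3 and Y397D-T3.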

How the data were processed

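RNA from the dorsal hippocampus of 30 mice was sequenced. According to the submitters' processing notes and the methods, the authors aligned reads with TopHat2 2.1.1 to mm10 and computed FPKM with Cufflinks 2.2.1, and the table holds the FPKM values as deposited, with 0 columns left out. The sequencing platforms named in the methods are not assigned to libraries here, so their part was not tested. Groups follow the labels.

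Rows with a mean of at least 1 FPKM over 30 libraries were transformed as log2(FPKM + 1) and fitted with limma 3.58.1 in R 4.3.3, with 1 coefficient per condition, trended empirical Bayes and Benjamini-Hochberg adjustment over 13184 rows at 0.05. The added 1 FPKM understates changes of low genes. The common effect is the mean of Y397F-T10 minus VEH-T10 and Y397D-T3 minus VEH-T3, and the difference is the second minus the first. ± gives the standard error of the fit. The Cyber-T-style test pooled the SD of each row with the mean SD of 101 rows of similar level, at a prior weight of 10. It used the same Benjamini-Hochberg adjustment at 0.05. Ss18l1 was tested with an exact permutation within length of training. Relative depth was estimated from 2642 low rows. The scripts were tested on simulated data. P-values measure the spread between mice.

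The comparison and the 37 gene lists were chosen with earlier results of these data known. Named were 8 genes in each direction for the common effect, 5 for the difference, up to 4 members of each list by smallest unadjusted p for the common effect, and Ss18l1, Crebbp, Smarca4, Fos, Egr2, Hpca, Hist1h4j and Grin2b. Others were named after their values had been seen, and some genes within these choices are not reported here. A symbol on several rows (280 symbols) was left out of the first 2 choices, and the row of highest mean was used in the lists. Transcript features come from GENCODE for GRCm38 (mm10), by symbol, for 96.2% of rows. Tables were made in Python 3.11.15 (scipy 1.17.1, pandas 2.3.3) and figures with matplotlib 3.10.9.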

Additional observations from a re-analysis of the deposited data

Results flagged for a closer look

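The effect of the plasmid differed between Y397F at 10 min and Y397D at 3 min in Rlim, at -0.38, Lrrc58, at -0.37, and Tmem263, at -0.32, by the limma test of the difference itself with an adjusted p of 0.0228, on the log2(FPKM + 1) scale. No gene was called for this difference with the 24 trained libraries alone, the replicate block, the Cyber-T-style test, library medians subtracted or the length and GC trend removed, nor in 8 of 24 fits that each left out 1 library.

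Single mice lay far from the other 5 of their condition in 12 of 136 groups of values tested for 34 genes, and chance alone flags about 1 in 20 groups. Of the genes named for the common effect, Higd1b was at 1.27 FPKM in VEH-T3 mouse 1, against 2.29 to 2.46 in the others. Rfx5 was at 5.82 in Y397F-T10 mouse 1, against 4.67 to 4.98. Ndufaf4 was at 7.34 in Y397D-T3 mouse 1, against 5.67 to 6.01, the reverse of the direction given for it. Cfl2 was at 22.03 in Y397F-T10 mouse 2, against 17.1 to 18.2, and Fhit at 0.643 in Y397D-T3 mouse 6, against 1.78 to 1.94. Of the genes named for the difference, Tmem263 was at 6.57 in VEH-T10 mouse 3, against 7.57 to 8.09, and Gm12338 at 18.8 in Y397D-T3 mouse 3, against 14.9 to 15.5. Grin2c was at 12.1 in VEH-T10 mouse 1, against 14.6 to 15.9. Cox19 was at 22.9996 in Y397F-T10 mouse 4, against 25.9 to 27.6, and Acp6 at 8.12 in Y397D-T3 mouse 1, against 6.50 to 7.08. Fos was at 9.16 in VEH-T10 mouse 5, against 6.89 to 7.45, and Grin2b at 14.6 in VEH-T10 mouse 1, against 6.26 to 8.47.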

How the results depend on the processing

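The common effect and Y397F-T10 against VEH-T10 gave 0 calls under each adjusted alternative, including the replicate block, and without any 1 library (0 to 0). At an unadjusted p under 0.05 the counts were 317 for the common effect, 1197 for the difference, 498 for Y397F-T10 and 1037 for Y397D-T3. The 4 calls of the difference were 0 with library medians subtracted, with the 24 trained libraries alone, with the Cyber-T-style test, with the length and GC trend removed, and, in alternatives chosen after seeing the data, with 14 choroid-rich libraries or the 2 libraries of lowest median left out; they were 4 with a pseudocount of 0.1, no filter or symbols summed. The 1 call of Y397D-T3 was 0 under each of those that lost the 4 and without a filter. Without 1 library the difference gave 0 to 5 calls and Y397D-T3 0 to 2. The difference gave 0 without VEH-T10 mouse 5, VEH-T3 mouse 2 or 3, Y397D-T3 mouse 2 or 3, or Y397F-T10 mouse 3, 4 or 6, and 1 without Y397D-T3 mouse 1. Y397D-T3 gave 0 in 16 of 24 such fits and 2 without VEH-T3 mouse 6. The cause was not tested beyond these alternatives; fits without a library rest on fewer samples. Lrrc58, Rlim and Tmem263 kept their direction throughout. Their differences were -0.35, -0.36 and -0.30 with library medians subtracted, about as large as in the fit reported. Without the choroid-rich libraries, 4 of the 6 VEH-T3 mice among them, they were -0.34, -0.42 and -0.36. Over the alternatives the adjusted p values for the difference lay between 0.00797 and 0.881, both in limma. With the replicate number as a block the difference and Y397D-T3 gave 0 calls. Same-numbered plasmid and vehicle mice correlated from -0.496 to 0.441, so no constant pairing by number was seen. Mice of unlike number were not compared, so this does not test for a batch by number. Without 1 library Ss18l1 ran from 0.0471 to 0.0827, Egr2 from -0.0194 to 0.0652, Hpca from -0.0068 to 0.0637 and Hist1h4j from -0.0575 to 0.246, so the signs of these last 3 common effects turned; with the 2 libraries of lowest median left out Hpca was -0.0172 and Hist1h4j -0.0371. Absolute depth is unknown, and values under 1 FPKM are given only as descriptions.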
